A study of Mus musculus with 8 samples.

Results

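Fast-twitch skeletal fibres and heart muscle build their contractile machinery from different members of the same gene families. This account follows 10 genes of skeletal muscle, called fast skeletal genes below although Mybpc1 is a slow-type form that fast fibres share, namely Actn3, Atp2a1, Pvalb, Mybpc1, Mybpc2, Myh2, Myl1, Casq1, Tnnc2 and Ampd1, out of 34745 genes in a count table of mouse hearts. They were found by gene symbol in the table, and all 10 were present. The list, and its split into genes high in a single library and genes that followed other libraries, was selected on the read counts of these same 8 libraries, so the levels of the 10 genes are given as a description and without a test.

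RNA was taken from mouse hearts of a pair of genotypes. The db/db mice carry a mutated leptin receptor on both alleles and develop type 2 diabetes, and the db/m mice carry 1 mutated allele and served as controls. All mice were male and untreated, of a strain given as C57BL/KsJ in the sample labels and as C57BLKS/J in the methods. Each genotype gave 1 library at 4, 12, 24 and 32 weeks of age. The methods assign more db/db mice to RNA-seq than there are db/db libraries, but do not say how many hearts went into each, and the 12-week libraries are not mentioned in the study's text.

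In skeletal muscle, myosin heavy and light chains form the thick filament motor, myosin binding proteins C hold it in register, alpha-actinin anchors the thin filaments at the Z-disc, and troponin C is the calcium switch of the thin filament. Calcium is stored on calsequestrin, pumped back into the sarcoplasmic reticulum by a SERCA pump and buffered in the cytosol of fast fibres by parvalbumin. Working cardiomyocytes use their own forms of most of these proteins.

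The db/m libraries held 14445436 to 22214678 counts and the db/db libraries 19246305 to 26676268, and the shallowest library was db/m 4w. A library at or under 3 counts was read as undetected, and 3 counts corresponded to 0.112 to 0.208 CPM, the count scaled to the library total. With 1 library per genotype and age there was no replicate, and every interval below covers counting error only. The heart label matched the markers: the 10 ventricular cardiomyocyte genes examined, led by Myh6 and Actc1, were detected in 8 of 8 libraries and took 5.74% to 6.84% of all counts. Epithelial markers of the oesophagus summed to at most 1 count in a library, and those of the lung to 0. In bulk RNA, fewer cells of a type and less RNA per cell cannot be told apart.

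The db/m 4w library stood apart from the other 7, and this bears on most of what follows. Among 17791 genes with at least 20 counts over the 8 libraries, 180 were at least 4-fold higher in db/m 4w than in each other library, which is 1.01% of the genes, while the other libraries had between 1 and 49 such genes. The 180 comprised 7 of the 10 fast skeletal genes, 4 other genes of the fast fibre list and 1 of the cartilage list (Col2a1, 25 counts). The remaining 168 were on none of the marker lists used here. The rest of the cartilage list was not highest in db/m 4w (Comp 9 counts, Acan 7, Cnmd and Matn1 0). Gh, the pituitary growth hormone, had 11546 counts in db/m 4w and 0 to 43 in the other libraries. Pou1f1, a transcription factor of the anterior pituitary, had 377 counts against 0 to 3. Snap25, a protein of synaptic vesicle fusion, had 462 counts against 1 to 9. Of the 10 genes with the largest ratio of db/m 4w to the second highest library, 2 were muscle genes (Myh4 and Myh1) and 8 were not (Gh, Pou1f1, Scg2, Insm1, Snap25, Myt1l, Stxbp5l and Rundc3a). The 168 unlisted genes took 0.178% of the counts of db/m 4w. The part of this library-wide difference in the skeletal muscle values was not tested, and age, genotype and library cannot be told apart in a single library.

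**Figure D1:**
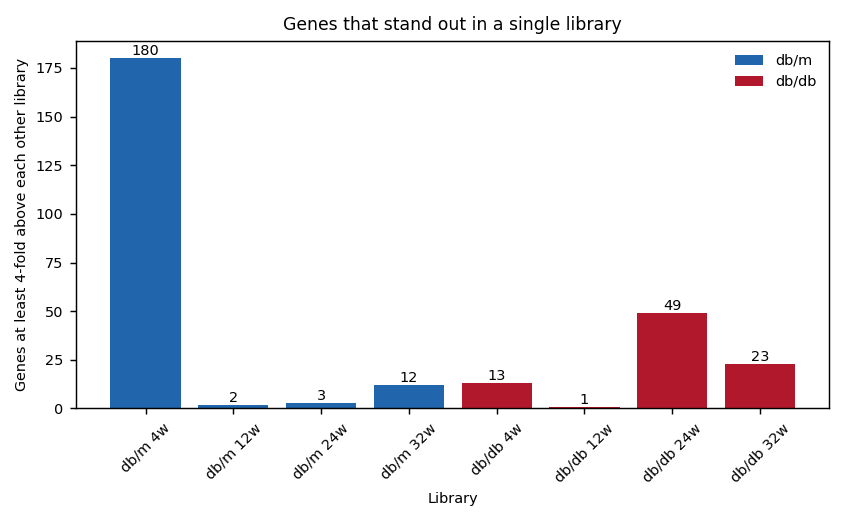
Number of genes (y axis) that were at least 4-fold above each other library, for each of the 8 libraries (x axis), among genes with at least 20 counts over all libraries; blue bars are db/m and red bars db/db. The db/m 4w library had 180 such genes, and the next highest, db/db 24w, had 49.

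Promoter sequence was examined because 7 of the genes shared their 1 high library. RefSeq tables on GRCm38.p6 held the 250 bases before the start of 8 of the 10 genes, with a pair of windows for Pvalb, and none for Actn3 and Ampd1. The windows below are shown for Atp2a1 and Mybpc1, which were high only in db/m 4w, and for Casq1 and Myl1, which were not, because all 4 hold the letters CAGCTG, a form of the E-box read by myogenic factors. Capitals mark every match to the E-box core CANNTG, which reads the same on both strands. Each window is on the minus strand and is printed in the direction of transcription.
Atp2a1, chr7:126463074-126463323: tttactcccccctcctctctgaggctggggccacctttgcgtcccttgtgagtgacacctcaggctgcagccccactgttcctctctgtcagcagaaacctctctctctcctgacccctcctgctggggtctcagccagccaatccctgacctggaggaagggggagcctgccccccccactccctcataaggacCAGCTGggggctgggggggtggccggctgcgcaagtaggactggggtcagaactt
Mybpc1, chr10:88605153-88605402: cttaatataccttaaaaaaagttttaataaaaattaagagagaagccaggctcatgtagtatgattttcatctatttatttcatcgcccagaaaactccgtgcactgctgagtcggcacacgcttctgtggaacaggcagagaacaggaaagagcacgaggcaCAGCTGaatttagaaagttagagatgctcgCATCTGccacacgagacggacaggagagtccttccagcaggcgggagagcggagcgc
Casq1, chr1:172219896-172220145: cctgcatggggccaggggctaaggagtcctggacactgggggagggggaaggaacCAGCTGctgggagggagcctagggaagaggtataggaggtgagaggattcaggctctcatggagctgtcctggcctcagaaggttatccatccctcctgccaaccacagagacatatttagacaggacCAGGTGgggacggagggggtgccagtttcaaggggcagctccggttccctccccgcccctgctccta
Myl1, chr1:66945057-66945306: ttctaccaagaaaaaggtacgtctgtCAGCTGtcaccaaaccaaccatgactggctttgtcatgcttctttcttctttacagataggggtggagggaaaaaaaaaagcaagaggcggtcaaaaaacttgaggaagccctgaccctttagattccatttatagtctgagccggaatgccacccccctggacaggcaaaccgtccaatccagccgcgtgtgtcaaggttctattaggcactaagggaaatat

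The core CANNTG lay in windows of 7 of the 8 genes (Myh2 had none) and in 66.2% of 32851 promoters of the same length. Its form CAGCTG lay in windows of 4 of the 8 genes and in 13.0% of all promoters, at 55 bases before the start in Atp2a1, 87 in Mybpc1, 195 in Casq1 and 224 in Myl1. A MEF2 box was found in 1 of the Pvalb windows, 180 bases before its start, and in 2.92% of promoters. TATAAA was found, on either strand, for Myl1 only and in 12.4% of promoters, and CATTCC for Mybpc2 and Myl1 and in 12.6%. No CArG box was found, against 1.47% of promoters. CAGCTG does not divide the genes by the library in which they were high, since it occurs on both sides of that divide. CATTCC and TATAAA fell only on the side of Mybpc2 and Myl1, and the MEF2 box only on that of Pvalb. These rest on 1 or 2 genes each and were not tested. A match is a description of the letters and not evidence of binding.

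Atp2a1 had the largest ratio of the 10 genes. Atp2a1 (chromosome 7, 126445858-126463108, minus strand, GRCm38) encodes SERCA1, the calcium pump of fast fibres. Its counts were 615, 9, 11 and 7 in db/m at 4, 12, 24 and 32 weeks and 13, 18, 20 and 10 in db/db. The 4-week db/m library was thus the only high one, and the other 7 lay within 7 to 20 counts. On the scale of CPM with TMM scaling, its level of 37.2 was 47.2-fold above the second highest library, db/db 24w, and 62.5-fold above db/db of the same age (95% interval 36.3 to 118). Pvalb (chromosome 15, 78191114-78206400), the parvalbumin gene, had 123, 0, 0 and 1 counts in db/m and 8, 3, 17 and 4 in db/db. Its level in db/m 4w was 20.3-fold that of db/db 4w (9.99 to 48.1), and in db/db it was detected at 4, 24 and 32 weeks but not at 12. At 24 weeks, with 0 counts in db/m, Pvalb in db/db was higher by at least 4.84-fold against 3 counts, and the exact interval of the ratio began at 3.52.

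Mybpc1, Actn3 and Myh2, of the thick filament and the Z-disc, had the same single high library. Mybpc1 (chromosome 10, 88518279-88605152), the slow-type myosin binding protein C that fast fibres also express, had 208, 5, 4 and 6 counts in db/m and 19, 13, 21 and 1 in db/db. The db/m 4w level was 14.5-fold that of db/db 4w (9.03 to 24.5), while at 24 weeks db/db was 4.48-fold higher than db/m (1.51 to 18.0) on far fewer reads. Actn3 (chromosome 19, 4861223-4877909), the alpha-actinin of fast fibre Z-discs, had 94, 1, 0 and 1 counts in db/m and 6, 1, 0 and 8 in db/db. At 4 weeks the ratio of db/m to db/db was 20.7 (9.16 to 57.8). Myh2 (chromosome 11, 67171027-67197517), the heavy chain of type 2A fibres, had 56, 1, 1 and 2 counts in db/m and 4, 0, 1 and 0 in db/db, a ratio of 18.5 at 4 weeks (6.83 to 70.2). Outside db/m 4w, Myh2 passed 3 counts in db/db 4w only.

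The sparsest genes had the widest intervals. Tnnc2 (chromosome 2, 164777161-164779967), troponin C of fast fibres, had 34, 0, 0 and 2 counts in db/m and 1, 5, 0 and 1 in db/db. At 4 weeks the ratio of db/m to db/db was 44.9, with an interval from 7.54 to 1826, and 15.0 with the undetected db/db library set to 3 counts. Ampd1 (chromosome 3, 103074014-103099720), the AMP deaminase of skeletal muscle, had 13, 2, 0 and 1 counts in db/m and 1, 1, 0 and 2 in db/db. Its ratio at 4 weeks was 17.2 (2.58 to 729.9), or 5.72 with undetected libraries set to 3 counts, and on that basis it stood 4.99-fold above the second highest library, close to the limit of 4-fold by which the split was drawn. Casq1, at 3.37-fold over its second highest library, lies just outside that limit, and its highest library is db/db 4w.

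Summed over the 7 genes, the level was 69.1 CPM in db/m 4w and 0.738 to 2.38 CPM in the other libraries, a ratio of 29.0 to 93.6. With db/m 4w left out, none of the 7 genes exceeded 21 counts in a library. Per gene length, on the deposited FPKM scale, the order within db/m 4w was Atp2a1 (11.2), Pvalb (5.05), Tnnc2 (2.94), Mybpc1 (2.57), Actn3 (2.15), Myh2 (0.511) and Ampd1 (0.190).

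**Figure D2:**
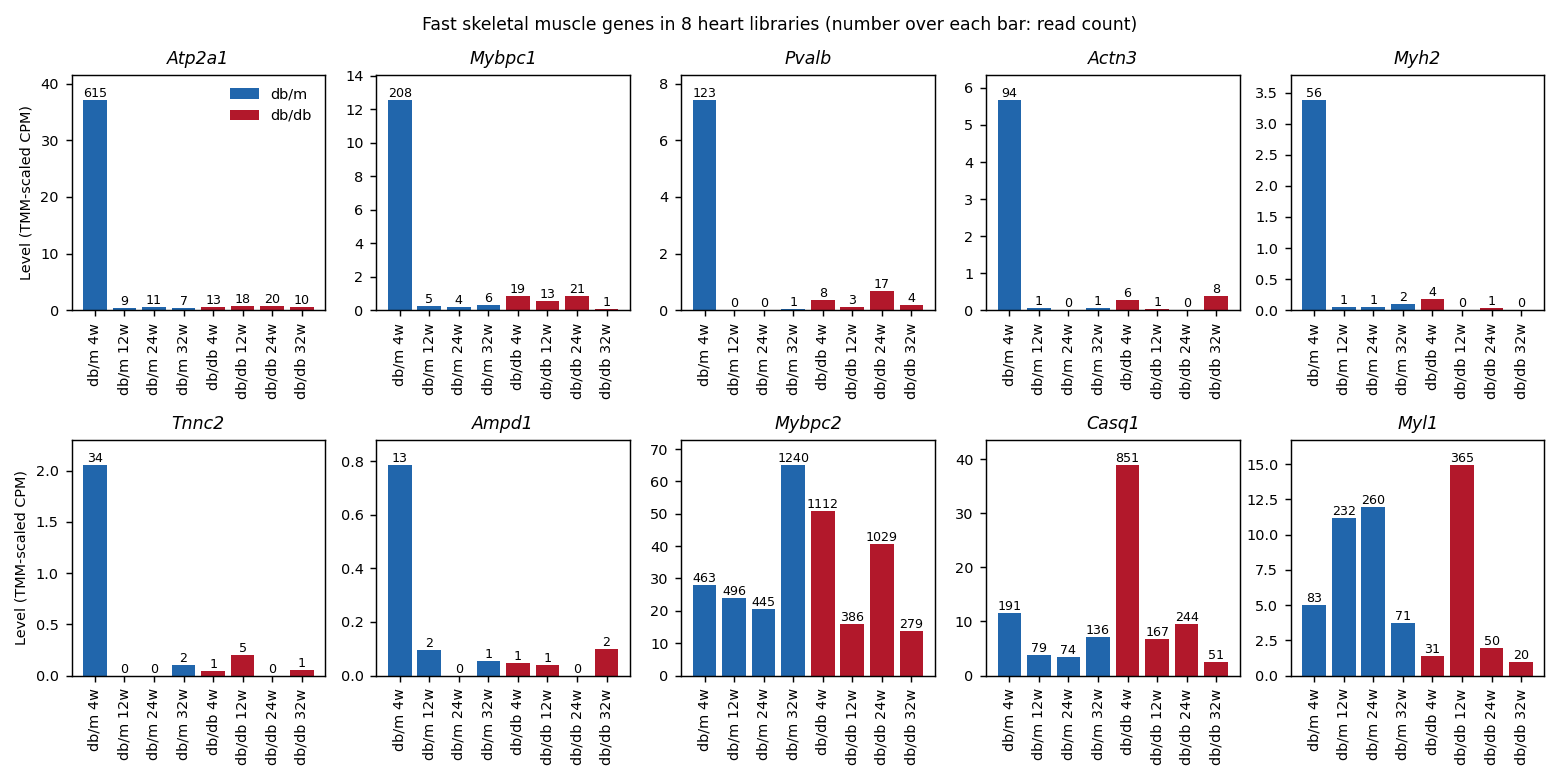
Level of each fast skeletal gene (y axis, TMM-scaled CPM, a scale of its own in each panel) in the 8 libraries (x axis), with the read count over each bar; blue bars are db/m and red bars db/db. Atp2a1, Mybpc1, Pvalb, Actn3, Myh2, Tnnc2 and Ampd1 have 1 high bar, db/m 4w, and Mybpc2, Casq1 and Myl1 have their highest bars in db/m 32w, db/db 4w and db/db 12w.

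Mybpc2, Casq1 and Myl1 were present in every library and peaked elsewhere. Mybpc2 (chromosome 7, 44501699-44524656), the fast-type myosin binding protein C, had 463, 496, 445 and 1240 counts in db/m and 1112, 386, 1029 and 279 in db/db. Its highest level, 65.1 CPM in db/m 32w, was 1.28-fold that of db/db 4w. In db/db it was 1.82-fold higher than in db/m at 4 weeks (1.63 to 2.03) and 1.97-fold higher at 24 weeks (1.76 to 2.21). In db/m it was higher by 1.52-fold at 12 weeks (1.33 to 1.74) and by 4.72-fold at 32 weeks (4.14 to 5.39). The direction between genotypes thus alternated from age to age, and the genotypes overlapped across ages.

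Casq1 (chromosome 1, 172209894-172219868), the calsequestrin of fast fibres, had 191, 79, 74 and 136 counts in db/m and 851, 167, 244 and 51 in db/db. Its level was 3.37-fold higher in db/db than in db/m at 4 weeks (2.88 to 3.97), 1.79-fold at 12 weeks (1.36 to 2.37) and 2.81-fold at 24 weeks (2.16 to 3.70). At 32 weeks it was 2.83-fold lower in db/db (2.04 to 3.99). The db/db 4w library was the single high one, and db/m 4w came second.

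Myl1 (chromosome 1, 66924295-66945404), the alkali light chain of fast myosin, had 83, 232, 260 and 71 counts in db/m and 31, 365, 50 and 20 in db/db. Its level was higher in db/m than in db/db by 3.54-fold at 4 weeks (2.32 to 5.53), 6.09-fold at 24 weeks (4.49 to 8.42) and 3.77-fold at 32 weeks (2.27 to 6.53). At 12 weeks it was 1.33-fold higher in db/db (1.13 to 1.58). The db/m 12w, db/m 24w and db/db 12w libraries were the high ones, at 11.2 to 14.9 CPM, against 0.989 to 5.02 CPM in the other 5. Mybpc2, Casq1 and Myl1 were each lowest in db/db 32w.

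Values of other tissues moved with these libraries. Of the 6 atrial genes examined, Myl7, the atrial regulatory light chain, had 552 counts in db/m 32w, 392 in db/db 4w, 662 in db/db 24w and 26 in db/db 32w, and 0 in the other 4. The atrial list as a whole summed to 57.7 to 373 CPM in the former 4 libraries and to 42.0 to 81.3 CPM in the latter. Myl1 was at 0.989 to 3.72 CPM in the libraries with Myl7 and at 5.02 to 14.9 CPM in those without. The nearest values rested on 71 counts in db/m 32w and 83 in db/m 4w. How many of all genes part in this way was not counted. Mybpc2 ranged from 13.8 to 65.1 CPM with Myl7 and from 15.8 to 28.0 CPM without, and Casq1 from 2.52 to 38.9 and from 3.41 to 11.5. The 3 libraries with the most Mybpc2 (db/m 32w, db/db 4w and db/db 24w) were also the 3 with the most Myl4, the atrial essential light chain, at 51.8 to 77.1 CPM against 0.676 to 5.73 CPM elsewhere. In db/db 4w, where Casq1 peaked, the 5 cartilage genes summed to 550 counts, of which Comp gave 473, against 39 to 129 in the other libraries. All 6 adipose genes were detected there, with 23 counts of Lep against 0 to 3, but the list summed to 22.3 CPM, within the 12.0 to 25.4 CPM of the other libraries, since Cidea gave most of it in every library. Plin1, Cidec and Adipoq had 22, 16 and 22 counts in db/db 4w, 14, 11 and 9 in db/m 32w, and 0 to 6 elsewhere. The part of atrial, cartilage and adipose tissue in these levels was not tested.

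**Figure D3:**
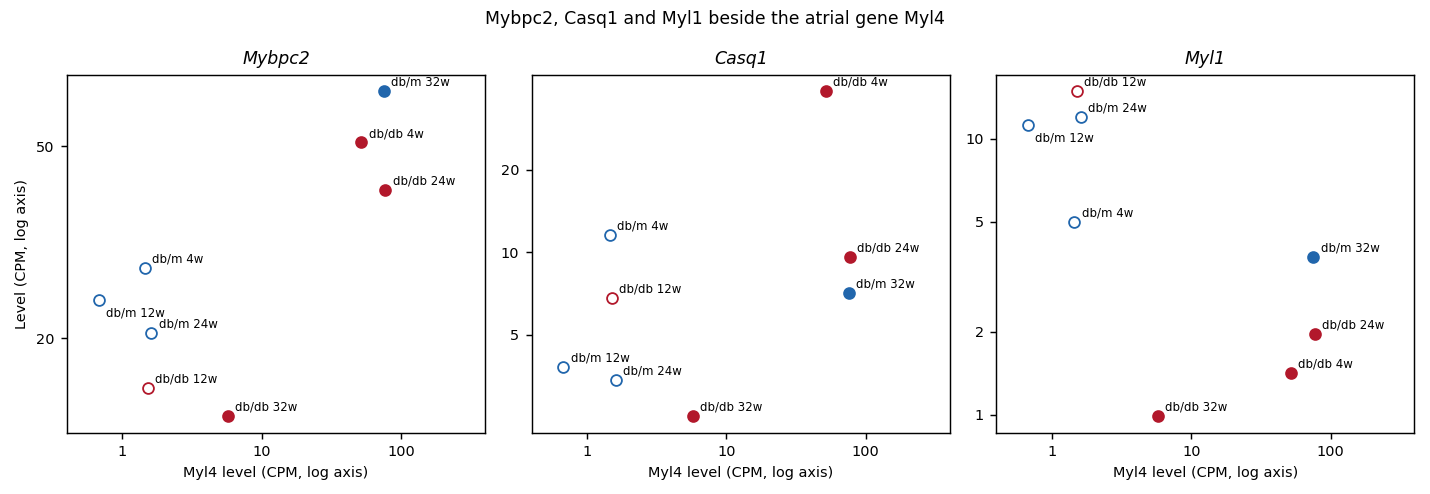
Levels of Mybpc2, Casq1 and Myl1 (y axes, CPM, log scale) against the atrial gene Myl4 (x axes, CPM, log scale), 1 point per library; blue is db/m, red is db/db, and open points are libraries with 0 counts of Myl7. Mybpc2 was above 40 CPM in the 3 libraries with the most Myl4, and Myl1 was under 5 CPM in every library with Myl7 counts.

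Between genotypes of equal age, a gene was read as different at 2-fold or more with at least 10 counts over the pair. At 4 weeks, 10 of the 10 genes passed the count limit, 8 were lower in db/db (the 7 high in db/m 4w, and Myl1) and 1 was higher (Casq1). Among all 16559 genes that passed, 7.38% were lower and 4.66% higher in db/db at that age. Lower genes made up 61.3% of those different at 4 weeks under TMM scaling and 76.9% under total-count scaling, which moved the median of all genes from 0.02 to -0.18 on the log2 scale, while the counts for the 10 genes were the same under both. The list was selected on these values, so this count describes the selection. At 12 weeks, 5 passed, 0 were lower and 1 was higher (Mybpc1, at 2.20-fold, with an interval from 0.737 to 7.89), with 4.09% of all genes lower and 4.09% higher. At 24 weeks, 6 passed, Myl1 was lower and Pvalb, Mybpc1 and Casq1 were higher in db/db, against 7.29% and 7.73% of all genes. At 32 weeks, 4 passed, Mybpc2, Casq1 and Myl1 were lower and 0 were higher, against 6.07% and 7.78%. Of the 7 genes, only Atp2a1, Mybpc1 and Pvalb passed the count limit at a later age, and Pvalb passed at 24 weeks through its db/db counts alone, so the 4-week difference of the 7 could not be followed at later ages for most of them. Over all libraries, db/m 4w was the highest for 17.2% of genes and for 7 of these 10.

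Each skeletal gene was set beside the form that the heart uses, by the ratio of their deposited FPKM values. In db/m 4w, Atp2a1 reached 0.917% of Atp2a2, the cardiac SERCA pump, against 0.00709% to 0.0125% in the other 7 libraries. Actn3 reached 0.618% of Actn2, against at most 0.0398%. Mybpc1 reached 0.491% of Mybpc3 and Tnnc2 0.459% of Tnnc1, against at most 0.0261% and 0.0235%. Even in the highest library these skeletal forms were therefore under 1% of the heart forms. Myh2 reached 0.00904% of Myh6, the alpha heavy chain of the adult mouse heart, and Ampd1 2.64% of Ampd3, against at most 0.473%.

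The highest share of a heart counterpart in any single library was that of Casq1. It came to 9.11% of Casq2 in db/db 4w, 5.54% in db/m 4w and 0.668% to 2.17% in the others. Mybpc2 ranged from 0.489% of Mybpc3 in db/db 12w to 2.36% in db/m 32w, and Myl1 from 0.0390% of Myl3 in db/db 4w to 0.354% in db/db 12w. The heart forms themselves varied less, and 7 of the 9 (Actn2, Atp2a2, Mybpc3, Myl2, Myl3, Casq2 and Tnnc1) had their lowest TMM-scaled level in db/m 4w, or 6 under total-count scaling, where Actn2 was lowest in db/db 32w. Across libraries the 9 differed by 1.17-fold (Myh6) to 2.64-fold (Casq2), so a lower denominator also entered most of the ratios in db/m 4w.

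**Figure D4:**
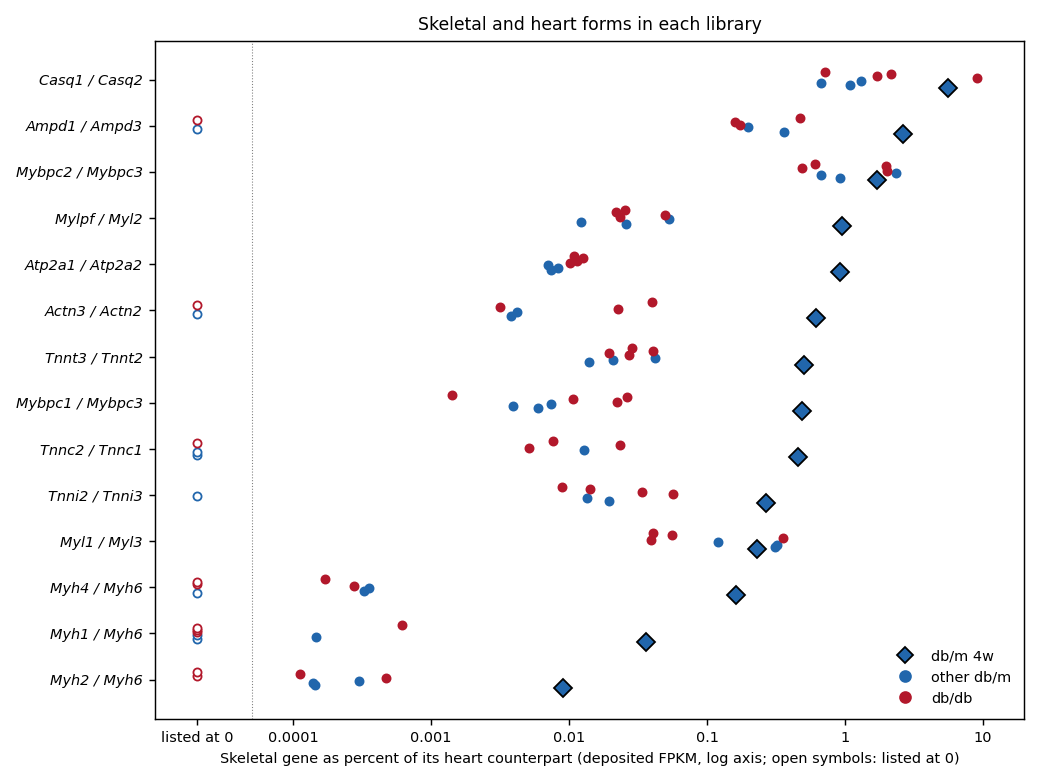
Deposited FPKM of each skeletal gene as a percent of its heart counterpart (x axis, log scale, with values listed at 0 set apart on the left) for 14 gene pairs (y axis); diamonds are db/m 4w, blue points the other db/m libraries and red points db/db. The diamond lies apart on the right in 11 of the 14 pairs, from 0.00904% for Myh2 to 2.64% for Ampd1, and lies among the other libraries for Casq1, Mybpc2 and Myl1.

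Other fast fibre genes were read from a list of 10. Of these, 4 stood at least 4-fold above each other library in db/m 4w, where the share of all genes was 1.01%. Myh4, the heavy chain of type 2B fibres, had 864 counts in db/m 4w and 0 to 2 elsewhere. Within db/m 4w this was more than any of the 10 genes described above. Myh1, the heavy chain of type 2X fibres, had 213 against 0 to 4. Mylpf, the regulatory light chain of fast myosin, had 96 against 3 to 13, and Tnnt3, fast troponin T, had 65 against 3 to 12. Per length, the fast heavy chains in db/m 4w were ordered Myh4 (9.25 FPKM), Myh1 (2.05) and Myh2 (0.511), and Myh4 came to 0.164% of Myh6. Tnni2, Myoz1 and Mylk2 were also highest in db/m 4w, at 38, 23 and 22 counts, but 2.61- to 3.75-fold above the second highest library. The remaining 3 behaved otherwise: Myh13 was undetected, and Tpm1 and Neb, which cardiomyocytes also express, were highest in db/db 12w. At 4 weeks, 8 of the 9 fast fibre genes that passed the count limit were lower in db/db and 0 were higher, where the shares of all genes were 7.38% and 4.66%. The direction turned at 12 weeks, where 0 of 5 were lower and 3 higher (Mylpf, Tnni2 and Myoz1, on at most 13 counts), beside 4.09% each way. Later, 0 of 5 were lower and 1 higher at 24 weeks, and 1 of 4 lower and 0 higher at 32 weeks. The shares of all genes were 7.29% and 7.73% at 24 weeks and 6.07% and 7.78% at 32 weeks. This list too was drawn up with earlier results of these libraries known.

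Genes of excitation and calcium release were read from a list of 13. Ryr1, the calcium release channel of skeletal muscle, was highest in db/m 4w at 227 counts, 2.24-fold above db/db 12w (150 counts), with 16 to 39 in the other 6. Scn4a and Cacna1s, the sodium and calcium channels of the skeletal membrane, were most abundant of the 13 genes on this list, and both were highest in db/db 12w. None of the 13 stood 4-fold above each other library in db/m 4w (1.01% of all genes did), and 4 of the 12 with at least 20 counts (Ryr1, Cacng1, Cacnb1 and Sypl2) were highest there, against 17.2% of all genes. At 4 weeks, 2 of 10 that passed (Ryr1 and Sypl2) were lower in db/db and 0 were higher, again beside 7.38% and 4.66% of all genes. Of 11 energy enzymes abundant in skeletal muscle and heart, with Ckm and Pygm the leading pair, 0 were highest in db/m 4w, and 0 were lower and 1 higher (Gpd1) in db/db at 4 weeks, beside the same shares. Of 6 genes of slow fibres, led by Myh7 and Myh7b, 0 were highest in db/m 4w, where the share of all genes was 17.2%, and at 4 weeks 0 were lower and 1 was higher in db/db (Tnni1, 14 counts against 3, at 3.53-fold with an interval from 0.986 to 19.2), beside 7.38% and 4.66% of all genes.

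Several markers of muscle precursors and embryonic fibres were near 0. Among the 10 examined, Pax7, the satellite cell factor, had 0 counts in every library, and the myogenic factors Myf5, Myod1, Myog and Myf6 had 1 to 3 counts in db/m 4w, with 6 of Myod1 in db/db 12w. Myh3 and Myh8, the embryonic and perinatal heavy chains, had 2 and 0 counts in db/m 4w and at most 7 elsewhere.

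**Figure D5:**
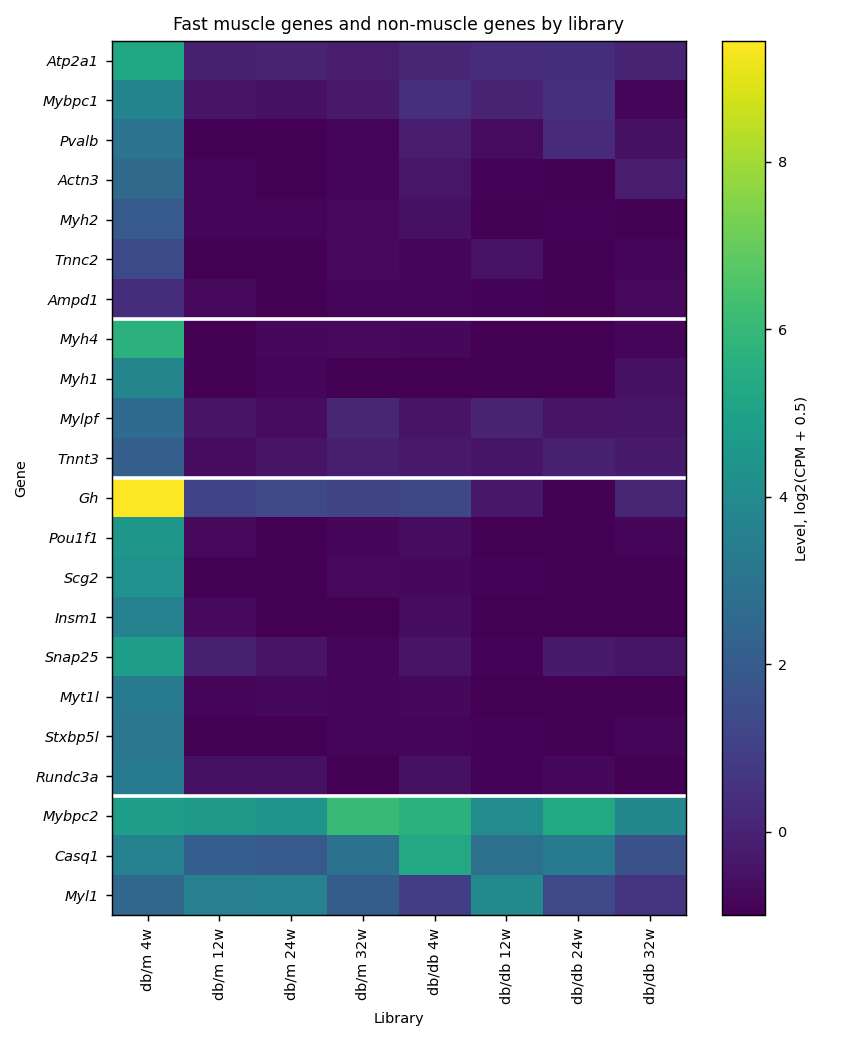
Level, as log2(CPM + 0.5) on the colour scale, of 22 genes (y axis) in the 8 libraries (x axis); white lines part the 7 genes high only in db/m 4w, 4 other fast fibre genes, the 8 non-muscle genes with the largest ratio in db/m 4w, and Mybpc2, Casq1 and Myl1. In the upper 3 blocks each gene is brightest in the db/m 4w column, with Gh the highest at 698 CPM, and in the bottom block each gene is brightest in another column.

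The genes whose pattern was most like each fast skeletal gene were sought by Pearson's r of log2(CPM + 0.5) over the 8 libraries, among genes with at least 50 counts in 1 library. For Atp2a1 these included Pcsk1n and Hoxb13 (r of 0.9954 and 0.9945). Pcsk1n, an inhibitor of a neuroendocrine prohormone convertase, had 84 counts in db/m 4w and 0 to 3 elsewhere. For Actn3 they were Unc79, Elavl4 and Arfgef3, for Myh2 Myt1l, Tub and Insm1, and for Ampd1 Rims2, Unc79 and Pou1f1. For Pvalb they were Pcsk1n, Tnnt3 and Celf4, and for Tnnc2 Mylpf, Anp32b-ps1 and Scrt1, while those for Mybpc1 included Pabpc1 and Lmtk3. The muscle genes among those named were Tnnt3 and Mylpf. All of these correlations share the one high library. Between pairs of the 7 genes r was 0.89 to 0.98 with db/m 4w, and -0.53 to 0.71 over the 7 libraries without it.

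The other 3 genes had other partners. Casq1 was most like Trim32, Adamtsl2 and Ssc5d (r of 0.97 each), and Adamtsl2, a secreted glycoprotein of the extracellular matrix, had 1159 counts in db/db 4w and 220 to 619 elsewhere. Myl1 was most like Sept4, a septin gene listed under a damaged symbol and named here from its identifier, Ank2 and Paip2b (r from 0.97 to 0.98), and Ank2, the membrane adaptor ankyrin-B, had 8950 counts in db/db 12w and 5125 to 7598 elsewhere. Mybpc2 was most like Wbp5, 9330159F19Rik and Rps12-ps3 (r from 0.95 to 0.98). These are orders among 8 points and carry no test.

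Genotype over the 4 ages, with each age as a block, was tested by edgeR's quasi-likelihood test on 15273 genes, and this fit was used for muscle genes outside the 10, heart counterparts included. Of 59 such genes on the lists, 37 had enough counts to be tested and 0 were called, as were 0 of all genes (0%), while 1776 genes in all and 8 of the 37 had an unadjusted p under 0.05. DESeq2's Wald test on the same counts called 272 genes, 2 of them muscle genes. These were Gpd1, a glycerol phosphate enzyme, with a log2 difference of 0.74 between db/db and db/m and an adjusted p of 0.0090 by DESeq2 against 0.271 by edgeR, and Myh7, the slow and cardiac beta heavy chain, with 0.97 and adjusted p values of 0.0143 and 0.335. The heart counterparts gave no call, with a median log2 difference of 0.09 against 0.01 over all genes tested. Whether the fast fibre genes differ between genotypes could hardly be asked of this fit, since only Tpm1 and Neb of the 10 on that list had enough counts.

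Sequence shared between genes could move reads between them. Of the 31-base stretches in the transcripts of Atp2a1, 0.403% also occur in Atp2a2, and for Actn3 0.731% occur in Actn2. No stretch of Mybpc1, Mybpc2, Casq1, Tnnc2, Ampd1 or Myl1 occurs in its heart counterpart. Myh2 shares 23.9% of its stretches with Myh1 and 14.5% with Myh4, and 0.310% with Myh6, so reads could be divided among the skeletal heavy chains far more than between these and the heart chain. Of the stretches of Myl1, 14.5% occur in the pseudogene Mylf-ps. Tnnc2 overlaps Ube2c on the other strand over 74.0% of its exonic bases, and Atp2a1 overlaps Rabep2 over 21.9%; the libraries were strand-specific, but whether counting used strand is not stated. Rabep2 had 114 to 172 counts in the 8 libraries, and Ube2c had 1 to 14, with 12 in db/m 4w.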

How the data were processed

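Total RNA of mouse hearts, in 8 libraries, was made into strand-specific libraries after rRNA depletion. The authors deposited 1 table with the raw count of reads on each of 34745 genes in each library, and beside it an FPKM value, scaled to gene length and library total. HISAT2, StringTie 1.3.0 and the build GRCm38 (mm10) are named in the submitters' processing notes, and the counting tool is not given in the sources used here. Every column of values belonged to 1 of the 8 libraries.

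Counts were scaled by TMM factors in edgeR 4.0.16 (R 4.3.3). Libraries of equal age were compared by the ratio of CPM with an exact 95% interval of the 2 counts, with libraries at or under 3 counts set to 3 counts where a fold is given as a bound or a rank among libraries. Genotype over 4 ages was tested by edgeR's quasi-likelihood test (filterByExpr, age as a block, Benjamini-Hochberg, threshold 0.05), with DESeq2 1.42.0 as an alternative. No other contrast was tested here. The p-value weighs the mean difference between genotypes over the 4 ages against the variation left after age and genotype. With 1 library per genotype and age, it does not measure the spread between animals of the same age. The genotype test and the rule for genes that stand out were tested on simulated data with known changes. Those changes were planted only in genes with many counts, so the simulations do not cover changes in genes as sparse as Ampd1, Tnnc2 and Myh2.

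Genes were named by a rule. They were the 10 genes, their heart counterparts, the 2 most abundant genes of each list or those with at least 10 counts where libraries are described, the 3 genes most like each of the 10, and the 10 genes with the largest ratio in db/m 4w. Some genes that meet this rule are not reported here. Genes on lists that are named for their role at or near 0 counts, and Col2a1, Rabep2 and Ube2c, were chosen after their values were seen. The 10 genes and all lists were chosen with earlier results of these data known. Lists of thymus and liver markers were read as well: thymus genes summed to 7 to 27 counts per library, and liver genes to 460 to 487 counts in the db/db libraries of 12 weeks and later and to 10 to 29 in the other 5. Positions equalled those of GENCODE vM21 for 9 of the 10 genes, and Actn3, which differed, is given as in the table. Promoters came from RefSeq (GRCm38.p6), and Python 3.11.15 with pandas 2.3.3, numpy 2.4.6 and matplotlib 3.10.9 was used.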

Additional observations from a re-analysis of the deposited data

How the results depend on the processing

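With 1 library per genotype and age, no alternative can stand in for replication, and depth limits Ampd1, Tnnc2 and Myh2 most. The number of the 10 genes at least 2-fold lower in db/db at 4 weeks was 8 under total-count scaling, DESeq2 size factors, the ratio of FPKM values, no count limit and a prior count of 1, and 7 at a 4-fold limit. The number standing out in db/m 4w was 7 under the same alternatives and 6 at a 10-fold limit. Over all genes these limits left 419 of 1222 and 91 of 180, fewer by construction. In the genotype fit, the calls were 0 under DESeq2 size factors, another count limit and no age block, and 0 to 0 when each age, or the db/m 4w library (an alternative chosen after seeing the data), was left out. The Wald test of DESeq2 gave 272 genes and 2 muscle genes, and the cause of that difference was not tested. The age block pairs libraries by age alone, since the labels tie no animals to each other. With a pseudocount of 2 in place of 0.5, 25 of the 30 most similar genes were the same.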
